A study of Rattus norvegicus with 8 samples.

Results

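Impa1, Kpnb1, Lmnb2, Creb1, Rhoa, Pard3, Stat3, Hmgb1 and Ranbp1 are mRNAs described in earlier work as localized to axons or translated there. They were chosen by name for that history and not by a rule on values measured here, though earlier results of these data were known by then. They were found by gene symbol in the comparison tables and by RefSeq transcript in the library files. All 9 genes were present, as 10 of the 18321 transcripts and 9 of the 17381 genes listed. The neurons came from dorsal root ganglia of rat embryos at embryonic day 15 and grew for 7 days in microfluidic chambers, in which axons extend into a compartment separate from the cell bodies. The 4 groups of 2 libraries each were axonal RNA from cultures given the shPum2 hairpin, axonal RNA from cultures given shControl, somatic RNA with shPum2 and somatic RNA with shControl, all from neurons transduced with a lentivirus when they were plated. The labels give cell bodies plus axons as the somatic source, so the somatic side also holds axonal RNA. Axonal libraries were made with an ultra-low input kit and somatic libraries with a standard kit, and the effects of compartment and kit thus cannot be told apart.

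Axons translate mRNAs that are carried along microtubules in granules of RNA and RNA-binding proteins, usually recognised through elements in the 3′ untranslated region. In sensory and sympathetic axons such local synthesis is known to serve growth cone turning, survival signalling from target tissue, and the report of injury back to the nucleus. Pum2 encodes Pumilio 2, an RNA-binding protein that binds a short element in 3′ untranslated regions and as a rule lowers translation or stability of its targets; the hairpin shPum2 is directed against it.

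The libraries held between 11641980 and 16131627 estimated counts on the axonal side and between 16725902 and 25821800 on the somatic side. Replicates of the somatic groups correlated across 11552 genes at r = 0.97 with shPum2 and 0.99 with shControl, and axonal replicates at 0.689 with shPum2 and 0.681 with shControl. Nothing in the labels says that replicates came from separate cultures, so p-values rest on the spread between these libraries, which may be technical. The edgeR tests used here also draw each gene's spread towards that of other genes, so it is not that gene's own spread alone. In the somatic libraries Pum2 had 38.2 and 36.5 counts scaled to the library total (CPM) with shPum2, against 164 and 160 CPM with shControl, a log2 change of -2.13 ± 0.07 (SE; edgeR's quasi-likelihood test, Benjamini-Hochberg adjusted p = 0.0247). In the axonal libraries Pum2 had 1.46 and 7.07 CPM with shPum2, against 3.25 and 0.443 CPM with shControl. These axonal values overlap, so the knockdown can be seen from the somatic libraries and not from the axonal ones. All 7 neuron markers tested had counts in every library, summing to between 1174 and 2053 CPM in axonal and between 9652 and 11600 CPM in somatic libraries.

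On the axonal side the 9 mRNAs fell into 3 abundant and steady ones and 6 that were low or varied widely between libraries. In TPM (a share of transcripts corrected for transcript length and so the scale on which genes can be set side by side), Ranbp1 led the axonal order with 140 to 251 TPM over the 4 libraries, followed by Hmgb1 with 72.6 to 139 TPM and Rhoa with 35.2 to 56.3 TPM. The ranges of these 3 did not overlap. Impa1 lay between 0.149 and 7.92 TPM, Stat3 between 0.695 and 14.0 TPM, Kpnb1 between 0.178 and 2.39 TPM and Pard3 between 0.0315 and 3.59 TPM. Creb1 reached at most 2.21 TPM and Lmnb2 at most 0.223 TPM, and both were at 0 in at least 1 axonal library. Neighbours from Impa1 down to Lmnb2 overlapped, so their order is not resolved. In somatic RNA the order differed and the libraries lay close together. There Rhoa led with 684 to 743 TPM, followed by Ranbp1 with 276 to 291 TPM and Stat3 with 258 to 262 TPM. Hmgb1 with 163 to 197 TPM and Kpnb1 with 165 to 186 TPM overlapped, Impa1 held 77.0 to 78.2 TPM and Lmnb2 17.8 to 22.5 TPM, and Pard3 with 12.6 to 14.8 TPM overlapped Creb1 with 9.30 to 14.3 TPM. The TPM of Rhoa and Creb1 rest on listed transcripts that look short, so their places in both orders depend on those lengths. Among all 17381 genes ranked by TPM, Ranbp1 stood between ranks 429 and 661 in axonal and between 607 and 657 in somatic libraries. Stat3 stood between ranks 3227 and 5558 in axonal and between 689 and 697 in somatic libraries.

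**Figure D1:**
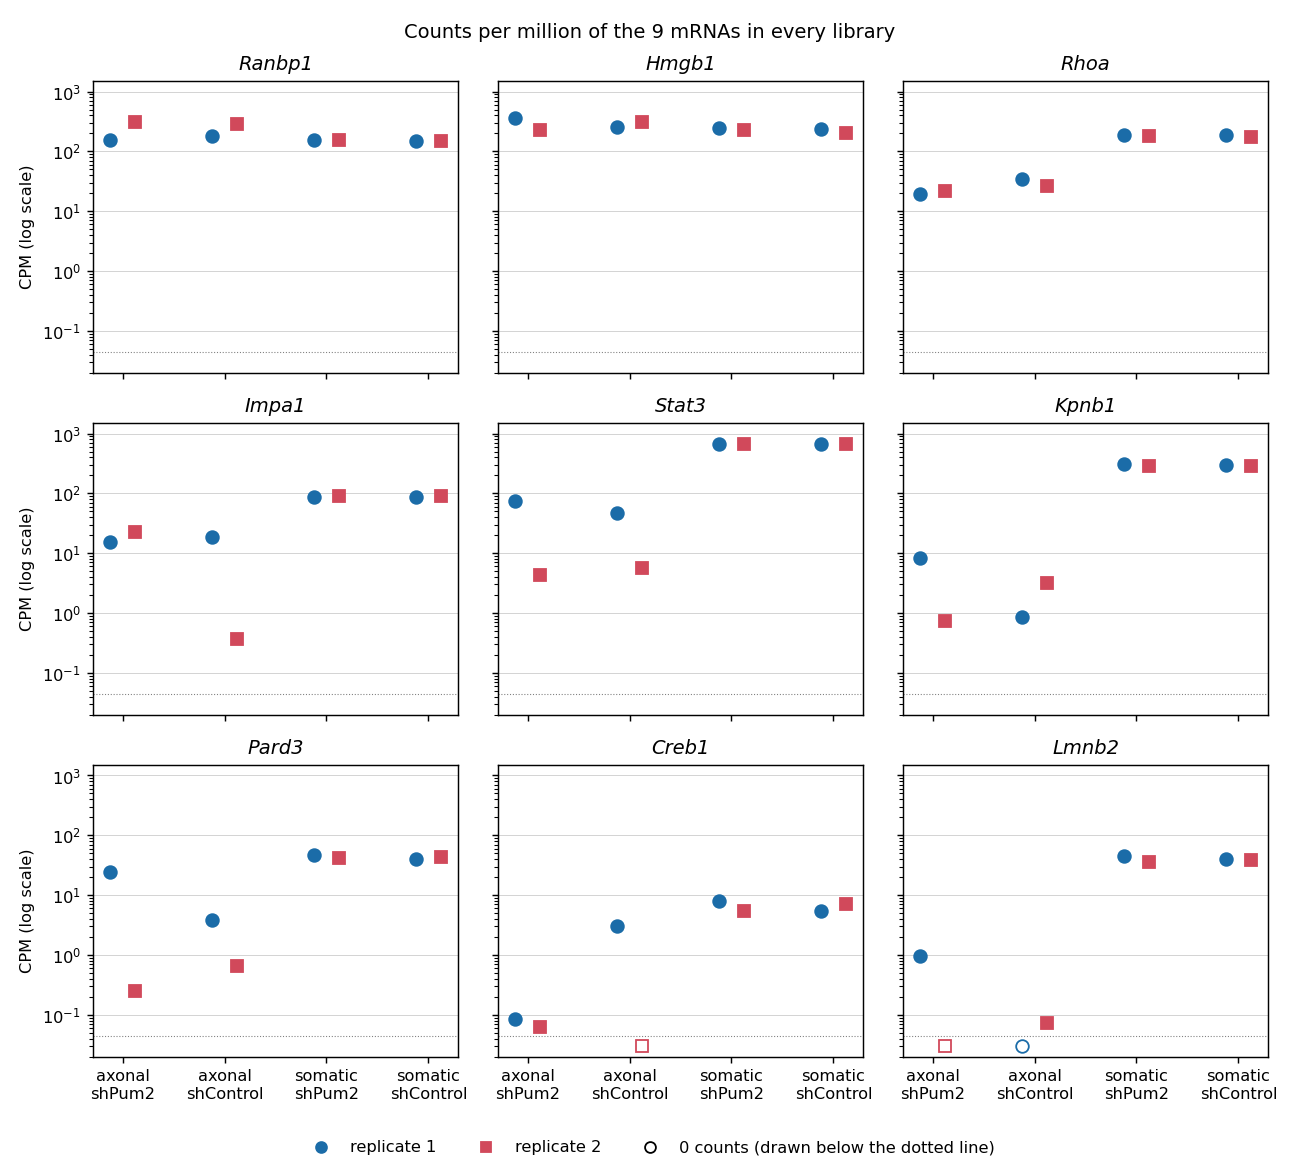
CPM on a log scale for each of the 9 mRNAs in the 8 libraries, with groups on the horizontal axis, circles for replicate 1 and squares for replicate 2; open symbols below the dotted line are libraries with 0 counts. Ranbp1 and Hmgb1 lie at like heights in all 4 groups, whereas the axonal points of Stat3, Kpnb1, Pard3, Impa1, Creb1 and Lmnb2 are lower and spread, from 4.40 to 75.0 CPM for Stat3 and from 0.248 to 24.0 CPM for Pard3.

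Ranbp1 encodes a cofactor that speeds GTP hydrolysis on Ran and so releases cargo from nuclear transport complexes; in injured rodent sciatic nerve it is known to be made in the axon. Its level was 153 and 310 CPM in axonal RNA with shPum2, against 153 and 157 CPM in the somatic RNA of those cultures. In shControl cultures it was 179 and 292 CPM in axonal libraries, against 149 and 149 CPM in somatic libraries. Both axonal shControl values exceeded both somatic ones, while the axonal shPum2 values overlapped the somatic ones at their lower end. Hmgb1 encodes a chromatin protein that is also secreted, known earlier as amphoterin, which promotes neurite growth. It had 362 and 225 CPM in axonal RNA with shPum2, against 246 and 224 CPM in the somatic RNA of those cultures. In shControl cultures it had 259 and 308 CPM in axonal libraries, against 235 and 206 CPM in somatic libraries, with no overlap.

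Kpnb1 encodes importin beta, the carrier that brings cargo through the nuclear pore and that injured sensory axons are known to translate. It had 8.42 and 0.744 CPM in axonal RNA with shPum2, against 315 and 290 CPM in the somatic RNA of those cultures. With shControl it had 0.856 and 3.18 CPM in axonal libraries, against 300 and 282 CPM in somatic libraries. Over summed counts, axonal Kpnb1 was 76.0-fold lower with shPum2 (95% counting interval 63.0 to 92.5) and 138-fold lower with shControl (105 to 184). These intervals, as all counting intervals given here, cover counting error alone, and the axonal replicates differed by far more. Lmnb2 encodes lamin B2, a protein of the nuclear lamina that in Xenopus retinal axons is made locally and sustains mitochondria. It had 0.945 and 0 CPM in axonal shPum2 libraries, from 11 counts in all, against 45.6 and 36.5 CPM in the somatic RNA of those cultures. In control cultures Lmnb2 had 0 and 0.0739 CPM in axonal libraries, from 1 count in all, against 40.7 and 39.4 CPM in somatic libraries, and the ratio of summed CPM was 1006-fold lower with a counting interval of 180 to 39770. A count of 0 allows up to 3 counts, or between 0.186 and 0.258 CPM in an axonal library, so Lmnb2 was within that limit in 3 of the 4 axonal libraries.

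Rhoa encodes a small GTPase that contracts the actin cytoskeleton and collapses growth cones, and its mRNA is known to be translated in sensory growth cones exposed to semaphorin 3A. It had 19.2 and 22.1 CPM in axonal RNA with shPum2, against 189 and 178 CPM in the somatic RNA of those cultures. Control cultures had 34.2 and 26.8 CPM in axonal libraries, against 185 and 177 CPM in somatic libraries. Pard3 encodes the polarity scaffold PAR3, whose axonal translation is tied to outgrowth on nerve growth factor. It had 24.0 and 0.248 CPM in axonal RNA with shPum2, against 47.1 and 41.0 CPM in the somatic RNA of those cultures. The shControl cultures had 3.85 and 0.665 CPM in axonal libraries, against 40.0 and 43.0 CPM in somatic libraries. In both mRNAs the axonal values lay below every somatic value, narrowly spread for Rhoa and by up to 96.7-fold between axonal libraries for Pard3.

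Stat3 and Creb1 encode transcription factors that carry signals from the axon to the nucleus, Stat3 after nerve injury and Creb1 in response to nerve growth factor. Stat3 had 75.0 and 4.40 CPM in axonal RNA with shPum2, against 662 and 680 CPM in the somatic RNA of those cultures. The control hairpin gave 46.4 and 5.62 CPM in axonal libraries, against 669 and 678 CPM in somatic libraries. In both axonal groups replicate 1 stood far above replicate 2, and all 4 axonal values lay below the somatic ones. Creb1 had 0.0859 and 0.0620 CPM in axonal shPum2 libraries, which is 1 count in each, against 8.09 and 5.34 CPM in the somatic RNA of those cultures. In control cultures Creb1 had 2.995 and 0 CPM in axonal libraries, against 5.38 and 7.12 CPM in somatic libraries. Creb1 was listed as 2 transcripts of 1125 and 1023 bases, and the longer took between 87.7% and 95.8% of its counts in the somatic libraries. Impa1 encodes inositol monophosphatase, which frees inositol and which rat sympathetic axons are known to translate in response to nerve growth factor. It had 15.4 and 22.4 CPM in axonal RNA with shPum2, against 87.9 and 90.4 CPM in the somatic RNA of those cultures. Among shControl cultures Impa1 had 18.8 and 0.370 CPM in axonal libraries, against 88.5 and 89.0 CPM in somatic libraries, so replicate 2 of the axonal shControl group stood apart from the other 3 axonal libraries.

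In CPM, 7 of the 9 mRNAs (Rhoa, Impa1, Stat3, Kpnb1, Pard3, Creb1 and Lmnb2) were lower in both axonal libraries than in both somatic ones, with shPum2 and with shControl alike. The same held for 69.3% of all 12339 genes tested with shPum2 and for 68.7% with shControl. Ranbp1 and Hmgb1 were higher without overlap in shControl cultures, where 11.5% of genes were, and neither was in shPum2 cultures, where 11% were. The share of lower mRNAs in the group is thus close to that of genes in general. At an unadjusted p below 0.05, edgeR under TMM had 5 of the 9 with shPum2, where 37% of genes tested were, and 4 of the 9 with shControl, where 41.9% were.

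Tests of axonal against somatic RNA used edgeR with TMM scaling, which sets library sizes by the bulk of genes instead of the total. With shPum2, 3 of the 9 mRNAs passed an adjusted p of 0.05, where 24.7% of all genes tested did; with shControl 4 did, where 27.9% of genes did. Kpnb1 was lower by both tests, with a log2 change of -4.78 ± 1.11 (SE) with shPum2 (adjusted p = 0.0255) and -5.60 ± 1.16 with shControl (adjusted p = 0.0204). Lmnb2 passed with shControl (-8.33 ± 2.26, adjusted p = 0.0368), a fitted value that rests on 1 axonal count, and not with shPum2 (-5.21 ± 1.88, adjusted p = 0.0912). Hmgb1 was higher under TMM, by 1.81 ± 0.31 with shPum2 (adjusted p = 0.0163) and 1.94 ± 0.31 with shControl (adjusted p = 0.0122), but under total counts it was higher by 0.32 and 0.36 with no call, and in TPM it was lower by -0.89 and -0.81 with no call. Ranbp1 was likewise higher under TMM, by 2.24 ± 0.60 with shPum2 (adjusted p = 0.0374) and 2.24 ± 0.60 with shControl (adjusted p = 0.0355), but it changed by 0.58 and 0.66 under total counts and by -0.67 and -0.56 in TPM, with no call under either. Those directions therefore depend on the scale. The other 7 mRNAs had negative values under TMM, total counts and TPM in both comparisons. The edgeR fits of both compartments hold 1 spread per gene, although axonal replicates varied more than somatic ones. Leaving out a library changes that spread as well as the levels. All 4 shControl calls, and all 3 shPum2 calls, were lost when any 1 of the 4 somatic libraries was left out, with adjusted p from 0.0651 to 0.19 in shControl cultures and from 0.0901 to 0.209 in shPum2 cultures. In shControl cultures Lmnb2 and Ranbp1 also lost theirs without axonal shControl replicate 1 (adjusted p = 0.077 and 0.0543) or replicate 2 (0.0733 and 0.104), and in shPum2 cultures Ranbp1 lost its call without axonal shPum2 replicate 2 (0.0829) or axonal shControl replicate 1 (0.0506).

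The scale matters here because axonal and somatic libraries were composed differently. The 10 leading genes took between 26.5% and 32.3% of TPM in axonal libraries and between 7.08% and 7.61% in somatic libraries. The mean transcript length weighted by TPM was between 837 and 974 bases in axonal and between 1817 and 1842 bases in somatic libraries. The median log2 change of all genes was -0.64 with shPum2 and -0.76 with shControl under TMM, -2.03 and -2.34 under total counts, and -2.74 and -2.80 in TPM. Calls split into 1041 higher and 2002 lower genes with shPum2 and 1161 higher and 2284 lower genes with shControl under TMM. Under total counts they split into 538 higher and 3015 lower (4.36% and 24.4% of genes tested) with shPum2 and 609 higher and 3606 lower (4.94% and 29.2%) with shControl, and of the 9 mRNAs 0 were higher in either comparison, 2 lower with shPum2 and 3 lower with shControl. In TPM, tested with limma on log2(TPM + 0.5), genes split into 402 higher and 7485 lower (3.26% and 60.7%) with shPum2 and 460 higher and 7588 lower (3.73% and 61.5%) with shControl, and there 0 of the 9 mRNAs were called higher and 7 were called lower in each comparison. Set against the TMM median, Ranbp1 lay 2.88 higher with shPum2 and 2.99 higher with shControl, and Hmgb1 lay 2.44 and 2.70 higher. With shPum2, 14.4% of genes had a larger change than Ranbp1 and 17.7% a larger one than Hmgb1.

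**Figure D2:**
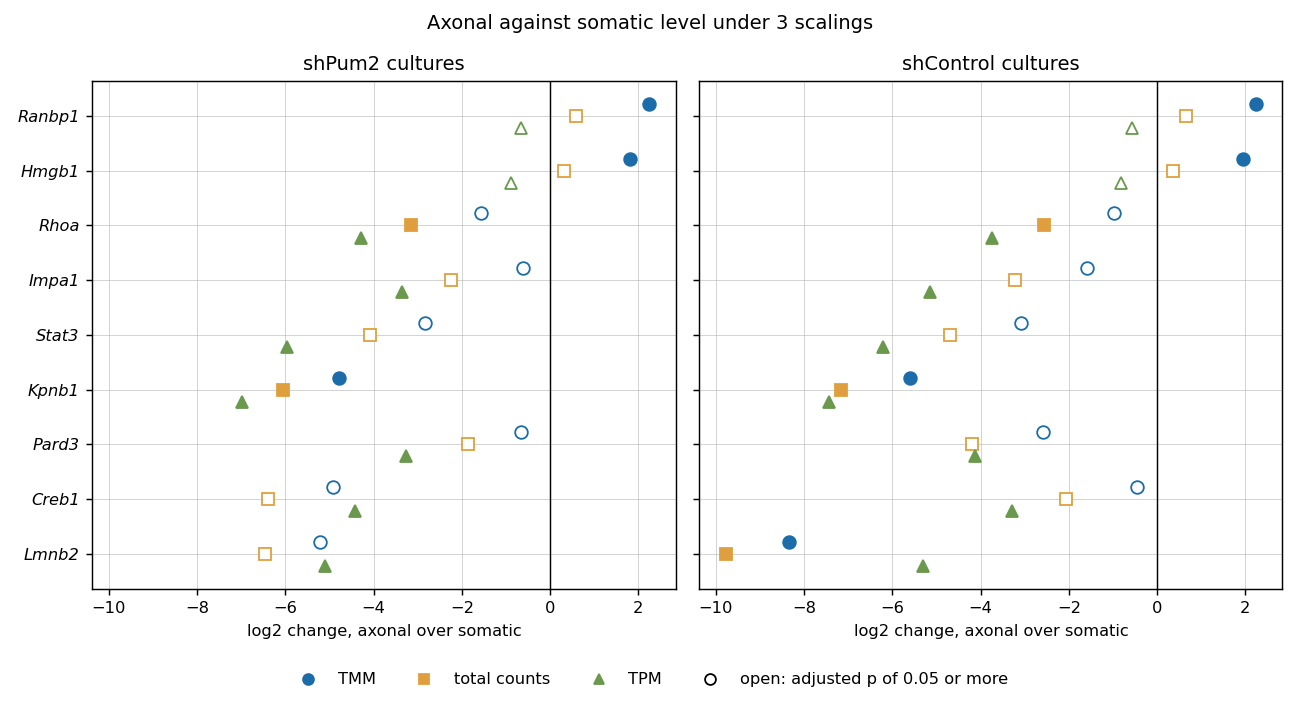
Log2 change of axonal over somatic RNA for the 9 mRNAs with shPum2 (left) and shControl (right), under TMM (circles), total counts (squares) and TPM (triangles); filled symbols passed an adjusted p of 0.05. Ranbp1 and Hmgb1 sit right of 0 under TMM and total counts and left of 0 in TPM, and the other 7 sit left of 0 under each scale.

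Ratios of 2 mRNAs within a library do not depend on library scaling. Read across libraries, an effect of transcript length that all libraries share cancels, but one that differs between compartments or kits does not. The part of length in these ratios was not tested. Counts of Ranbp1 over Kpnb1, a cofactor and a carrier of the same transport cycle, had a ratio of 18.2 and 416 in axonal shPum2 libraries and of 209 and 91.8 in axonal shControl libraries. In somatic libraries that ratio was 0.486 and 0.542 with shPum2 and 0.496 and 0.528 with shControl. Hmgb1 over Stat3 gave 4.83 and 51.0 in axonal shPum2 libraries and 5.59 and 54.8 in axonal shControl libraries, against 0.371 and 0.329 in somatic shPum2 and 0.352 and 0.304 in somatic shControl libraries. Ranbp1 over Rhoa gave 7.99 and 14.0 in axonal shPum2 and 5.23 and 10.9 in axonal shControl libraries, against 0.810 and 0.885 in somatic shPum2 and 0.804 and 0.843 in somatic shControl libraries. Each of these 3 ratios was higher in every axonal library than in every somatic one. The 3 ratios set an mRNA seen to be high on the axonal side over one seen to be low. Their direction therefore restates the levels above and is no separate support. Hmgb1 over Ranbp1 did not separate the compartments, at 2.36 and 0.725 in axonal shPum2 and 1.45 and 1.06 in axonal shControl libraries, against 1.61 and 1.42 in somatic shPum2 and 1.58 and 1.38 in somatic shControl libraries. Hmgb1 and Ranbp1 together made up 78.3% and 91.5% of the counts of the 9 mRNAs in axonal shPum2 libraries and 80.4% and 94.2% in axonal shControl libraries, against 22.8% and 22.4% in somatic shPum2 and 22.4% and 21.3% in somatic shControl libraries.

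The transcripts, as listed, ran from 585 bases for Rhoa and 1052 for Ranbp1 to 4457 for Stat3 and 5500 for Pard3. The listed transcripts of Rhoa and Creb1 look short, so reads from their untranslated regions may not have been counted. Their counts, their TPM and the correlations over the 9 mRNAs carry this limit. Whether such a loss differed between compartments or kits was not tested. Across the 9 mRNAs the Spearman correlation of length with the axonal over somatic log2 change was -0.283 with shPum2 and -0.683 with shControl, and across all 12339 genes it was -0.352 and -0.323. These are descriptions over genes measured in shared libraries. Hmgb1, listed at 2256 bases, was longer than the listed transcripts of Impa1, at 2075 bases, and Rhoa, at 585. Impa1 and Rhoa both had lower axonal over somatic values than Hmgb1 under TMM, total counts and TPM. Kpnb1, Lmnb2, Stat3 and Pard3, all longer than Hmgb1, also had lower values than Hmgb1 under each scale. The part of length in these values was not tested.

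The shPum2 hairpin was compared with shControl first in somatic RNA. Of the 9 mRNAs, 0 passed, where 0.0081% of the 12348 genes tested did, which was Pum2 alone; 74 genes (0.599%) had an unadjusted p below 0.05, none of them among the 9. Log2 changes ran from -0.01 for Stat3 to 0.08 for Creb1 and Hmgb1, and each had an adjusted p of 0.9997 by edgeR's quasi-likelihood test. The 95% intervals were narrow for the abundant mRNAs, from -0.18 to 0.20 for Rhoa, from -0.29 to 0.26 for Stat3, from -0.17 to 0.26 for Kpnb1 and from -0.16 to 0.26 for Ranbp1. Creb1, with 310 counts over the shPum2 and 255 over the shControl libraries, had the widest, from -0.71 to 0.87. The 2 groups of Ranbp1 did not overlap, at 153 and 157 CPM with shPum2 against 149 and 149 CPM with shControl, a difference of 0.05 ± 0.08 on the log2 scale; 11.5% of genes were higher without overlap. None of the 9 was lower without overlap, as 13% of genes were. Fewer cells of a type and less RNA per cell cannot be told apart in such bulk samples, and fibroblast markers summed to 8515 and 1625 CPM with shPum2, against 3270 and 1649 CPM with shControl; the part of these cells in the values was not tested.

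In axonal RNA, 7 of the 9 mRNAs passed the filter on low counts, and Lmnb2 and Creb1 did not. Of the 7, 0 were called, where 0% of 8519 genes were, that is 0 genes, with 256 (3.01%) at an unadjusted p below 0.05 and 348 called by DESeq2, which called none of the 9. Rhoa was the single mRNA of the 7 whose groups did not overlap, lower at 19.2 and 22.1 CPM with shPum2 against 34.2 and 26.8 CPM with shControl, as were 12% of the genes tested. Its log2 change was -0.64 ± 1.47 (adjusted p = 0.9993), with an interval from -4.00 to 2.71. Hmgb1 changed by -0.11 ± 0.60 and Ranbp1 by -0.03 ± 0.73, with intervals from -1.48 to 1.27 and from -1.71 to 1.65. The intervals of Impa1 (-4.03 to 5.84), Kpnb1 (-4.34 to 6.08), Stat3 (-3.69 to 4.20) and Pard3 (-4.08 to 8.15) were wider still. An effect of several-fold in either direction could therefore not be detected for these 4 or for Rhoa in 2 libraries a group. For Rhoa the 4 axonal values spanned 1.79-fold in CPM, so the width of its interval also holds spread drawn from other genes. Hmgb1 and Ranbp1 could still differ by any amount within their intervals. The value for Pard3, 2.03 ± 2.67, rested on axonal shPum2 replicate 1, without which it was -2.99, and that for Stat3, 0.25 ± 1.72, was -2.41 without the same library.

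**Figure D3:**
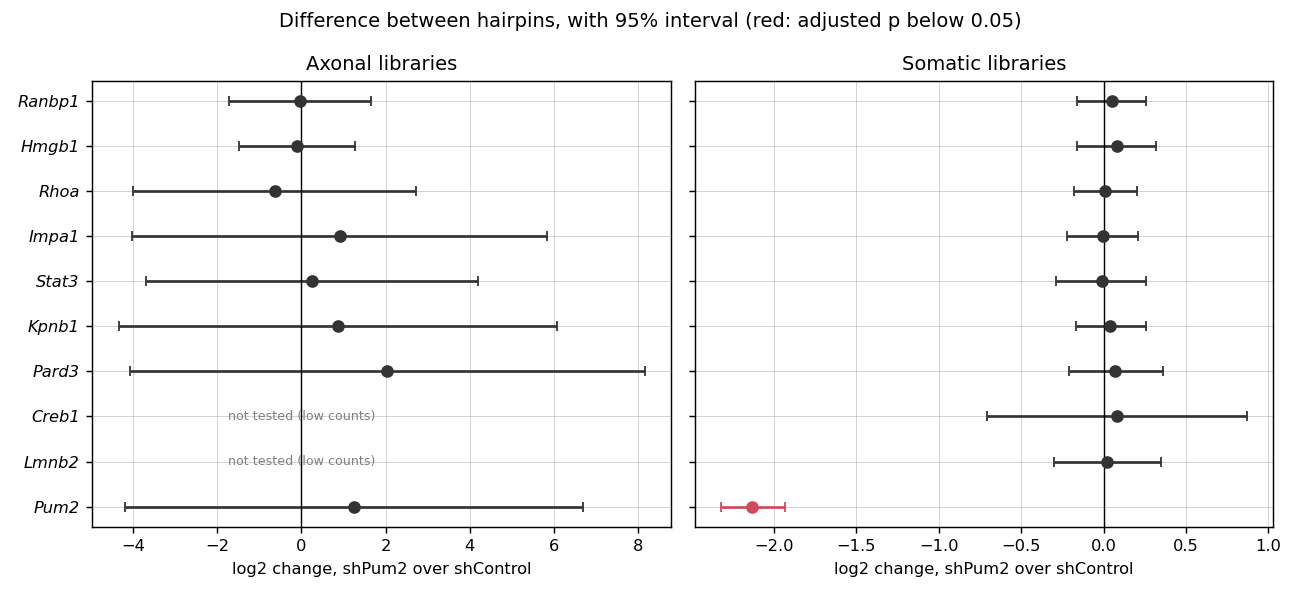
Log2 change of shPum2 over shControl with its 95% interval for the 9 mRNAs and Pum2, in axonal (left) and somatic (right) libraries on separate horizontal scales. In somatic RNA the 9 mRNAs lie between -0.01 and 0.08 and Pum2, in red, at -2.13; in axonal RNA every interval crosses 0.

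The test of whether the hairpin difference itself differed between compartments called 0 of the 9 mRNAs, where 0% of 12339 genes were called, with 964 (7.81%) at an unadjusted p below 0.05 and 631 called by DESeq2. The values ran from -4.47 ± 2.66 for Creb1 (adjusted p = 0.657) to 3.12 ± 2.53 for Lmnb2 (adjusted p = 0.792), both of which rest on a handful of axonal counts. The narrowest intervals were those of Hmgb1 at -0.14 ± 0.43, from -1.16 to 0.89, Rhoa at -0.58 ± 0.74, from -2.36 to 1.19, and Ranbp1 at 0.01 ± 0.81, from -1.93 to 1.95. The authors' deposited tables list all 9 mRNAs in both compartments and have 0 of them at an adjusted p below 0.05, where 357 of 17320 genes (2.06%) are in the axonal table and 2 genes (0.0115%) in the somatic one. In the authors' deposited table of axonal RNA the log2 fold change was -0.12 for Hmgb1, 0.05 for Ranbp1 and -0.52 for Rhoa, and Creb1 and Lmnb2 had no adjusted p. In the authors' deposited table of somatic RNA, Pum2 stood at -1.71, which sets the direction of the column as shPum2 over shControl.

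On the axonal side the levels of Stat3 and Pard3 had the same order over the 4 libraries as the summed level of macrophage and blood markers. The summed level of fibroblast markers had this order too, so the match is not particular to either marker list. Impa1, Rhoa, Kpnb1, Creb1, Lmnb2, Hmgb1 and Ranbp1 did not follow that order throughout. Of 8 macrophage and blood markers, 8 had counts in axonal shPum2 replicate 1 and 6 in replicate 2, and 7 in each axonal shControl library. They summed to 1615 and 87.9 CPM in axonal shPum2 and to 1031 and 717 CPM in axonal shControl libraries, against 106 and 25.1 CPM in somatic shPum2 and 49.6 and 28.7 CPM in somatic shControl libraries. Csf1r, the receptor that macrophages need for survival, had 252 and 0.310 CPM in axonal shPum2 and 153 and 0.296 CPM in axonal shControl libraries. The other markers did not all go with Csf1r, as the 8 together still held 717 CPM in axonal shControl replicate 2. Stat3, like Csf1r, was higher in replicate 1 of both groups, at 75.0 and 4.40 CPM with shPum2 and 46.4 and 5.62 CPM with shControl. Pard3 had 24.0 and 0.248 CPM with shPum2 and 3.85 and 0.665 CPM with shControl. Hmgb1 was highest of the axonal libraries where the macrophage and blood markers were highest, at 362 CPM, and lowest, at 225 CPM, in axonal shPum2 replicate 2, where they were lowest and Ptprc and Itgam were at 0. Ranbp1 had its highest axonal level, 310 CPM, in that replicate and its lowest, 153 CPM, in axonal shPum2 replicate 1. The part of these cells in the levels of the 9 mRNAs was not tested. Fibroblast markers summed to 724 and 69.0 CPM in axonal shPum2 and to 361 and 192 CPM in axonal shControl libraries, and Schwann and satellite cell markers to 48.2 and 57.1 CPM and to 25.3 and 89.3 CPM, with Cdh19 at 0 in every axonal library. By edgeR under TMM, 3 of the 8 macrophage and blood markers were higher in axonal than somatic RNA with shPum2 and 4 with shControl, falling to 0 and 2 under total counts and to 0 in TPM. Under TMM 1 Schwann and satellite cell marker was higher and 1 lower in each comparison, 0 fibroblast markers were called with shPum2 and 1 was lower with shControl, and 0 neuron markers were called with shPum2 and 4 were lower with shControl. Under total counts 5 of 7 neuron markers were lower with shPum2 and 6 with shControl, and in TPM 6 in each. Of 8 fibroblast markers 1 was lower in each comparison under total counts, and in TPM 6 were lower with shPum2 and 5 with shControl. Of 8 Schwann and satellite cell markers 1 was lower with shPum2 and 2 with shControl under total counts, and 4 and 3 in TPM, with 0 higher under either scale. Among all genes tested, 16.2% with shPum2 and 18.5% with shControl were lower under TMM. Under total counts 24.4% and 29.2% were lower, and in TPM 60.7% and 61.5%. The shares higher were 8.44% and 9.41% under TMM, 4.36% and 4.94% under total counts, and 3.26% and 3.73% in TPM.

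**Figure D4:**
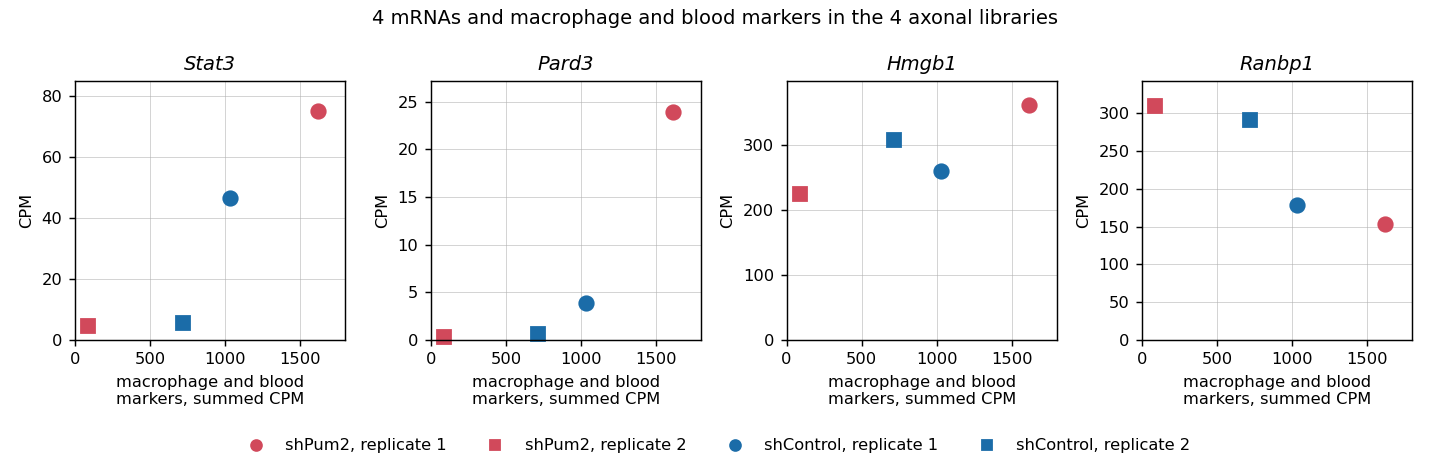
CPM of Stat3, Pard3, Hmgb1 and Ranbp1 against the summed CPM of 8 macrophage and blood markers in the 4 axonal libraries, red for shPum2 and blue for shControl, circles for replicate 1 and squares for replicate 2. Stat3 and Pard3 are highest in the library with 1615 CPM of markers, and Ranbp1 is highest, at 310 CPM, in the library with 87.9 CPM.

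Genes that work with these mRNAs were followed in lists set by function; counts are those under TMM unless another scale is named. Among 14 genes of importins and the Ran cycle, 1 was higher and 3 were lower in axonal than in somatic RNA with shPum2, and 1 was higher and 7 were lower with shControl, where 8.44% and 16.2% of genes tested were higher and lower with shPum2 and 9.41% and 18.5% with shControl. Lower were Kpna6, an importin alpha (-7.09 ± 1.15 with shPum2 and -6.27 ± 1.10 with shControl), Rcc1, the exchange factor of Ran (-5.48 ± 1.13 and -5.31 ± 1.12), Ranbp2, a nuclear pore protein (-4.74 ± 0.83 and -2.87 ± 0.75), and Ipo7, another importin (-5.47 ± 1.30 with shControl). These stayed lower and called under total counts and TPM. Nutf2, which brings Ran into the nucleus, was higher under TMM (3.09 ± 0.56 with shPum2, adjusted p = 0.018, and 2.62 ± 0.55 with shControl, adjusted p = 0.0207), while in TPM it changed by 0.22 and -0.14 with no call. Under total counts the list had 1 higher and 6 lower genes with shPum2 and 0 and 9 with shControl, and in TPM 0 higher and 12 lower in each. The shares of all genes tested that were lower were 24.4% with shPum2 and 29.2% with shControl under total counts, and 60.7% and 61.5% in TPM; these, and the TMM shares above, are the background for each list that follows.

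Of 16 genes of JAK-STAT and CREB signalling, 0 were higher and 5 lower with shPum2 and 1 was higher and 4 lower with shControl under TMM. Under total counts 0 were higher, 6 lower with shPum2 and 7 lower with shControl, and in TPM 0 were higher and 10 lower in each. Crtc1, a coactivator of CREB (-6.51 ± 1.18 and -5.81 ± 1.14), and the cytokine receptor Lifr (-4.74 ± 1.25 and -6.54 ± 1.37) were lower in both. Socs3, an inhibitor of JAK signalling, had no counts in axonal shControl libraries, against 4.90 and 3.62 CPM in somatic shControl libraries. Atf1, a relative of Creb1, was higher with shControl by 3.07 ± 0.72 under TMM and by 0.30 with no call in TPM.

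Of 12 genes of the nuclear lamina and of HMG proteins with their receptors, 0 were called with shPum2, and 3 were higher and 1 lower with shControl under TMM. In TPM 0 were higher, 6 lower with shPum2 and 7 lower with shControl, and under total counts 0 were called with shPum2 and 2 were lower with shControl. The higher ones under TMM encode small chromatin proteins like Hmgb1, namely Hmgb2 (4.83 ± 1.45), Hmgn1 (3.18 ± 0.78) and Hmgn2 (2.22 ± 0.61), and none was called under total counts or in TPM, where Hmgn2 turned to -0.65. Lmnb1, the paralog of Lmnb2, was lower (-6.32 ± 1.89, adjusted p = 0.0488). Of 10 genes of inositol metabolism, 0 were higher and 1 was lower with shPum2, the phosphatase gene Bpnt2 (-4.84 ± 0.94), and 0 were called with shControl, where Itpk1 had the smallest p (-1.81 ± 0.62, adjusted p = 0.0715), all under TMM. Under total counts 4 of them were lower in each comparison, and in TPM 5 were lower with shPum2 and 7 with shControl, with 0 higher under either scale. Of 16 other mRNAs with a history of axonal detection, 5 were higher and 1 lower in each comparison under TMM, but the balance turned with the scale. Under total counts 3 were higher and 3 lower with shPum2 and 2 were higher and 5 lower with shControl, and in TPM 1 was higher and 9 lower with shPum2 and 0 were higher and 11 lower with shControl. Tsc2, a brake on mTOR signalling, was higher by 5.15 ± 0.32 with shPum2 and 3.64 ± 0.30 with shControl, and it also changed by 2.42 and 0.88 in TPM. Cox4i1, a subunit of the respiratory chain, was higher by 2.78 ± 0.38 and 2.75 ± 0.38, and Nefm, a neurofilament subunit, by 2.49 ± 0.32 and 2.01 ± 0.32, while in TPM Cox4i1 changed by 0.04 and -0.01 and Nefm by -0.21 and -0.80. Nmnat2, which makes NAD in axons, was lower at -7.13 ± 1.26 with shPum2 and -6.28 ± 1.20 with shControl. Between the hairpins 0 genes of these lists were called in somatic or axonal RNA, where 0.0081% and 0% of genes were. The smallest axonal p values in them were those of Tlr4, a receptor for HMGB1, at 35.2 and 6.39 CPM with shPum2 against 0 and 0.0739 CPM with shControl (unadjusted p = 0.0255, adjusted p = 0.9993), and of Tsc2, at 1533 and 1155 CPM with shPum2 against 467 and 490 CPM with shControl (unadjusted p = 0.0392, adjusted p = 0.9993).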

How the data were processed

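RNA of 8 libraries in 4 groups was analysed. Per the file headers, the authors' deposited library files hold estimated counts and TPM of RefSeq transcripts. The submitters' processing notes name kallisto, DESeq2 and the build Rnor_6.0, and give no tool version. The authors' deposited comparison tables hold, per the file headers, p-values, a test statistic (a score), log2 fold changes with standard errors and the mean normalised signal; 17320 genes are listed in each, and these tables were used to set values beside those computed here. Strand use in the counting is not given in the sources used here.

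Symbols came from RefSeq (GRCr8), of which names alone were used; 17359 of 18321 transcripts (94.7%) matched, and the rest held 2.04% to 3.65% of counts. Summing and rounding the estimated counts gave 17381 genes. CPM used the total of each library. Tests used edgeR 4.0.16 in R 4.3.3 (quasi-likelihood, TMM, expression filter, Benjamini-Hochberg threshold 0.05), with no replicate block, on the 4 somatic or 4 axonal libraries for the hairpins and on all 8 for compartments and the interaction, which then share 1 spread per gene. An exact permutation test of 2 against 2 cannot give a p below 0.333 and was not used. The main edgeR fit was tested on simulated data for the hairpin comparisons, axonal against somatic RNA with shControl, and the interaction. The alternatives that follow were not tested so. The simulated data gave each gene the same spread in every library and placed changes in the more abundant genes alone. They therefore do not show how fits of all 8 libraries behave when axonal replicates vary more than somatic ones. Alternatives were DESeq2 1.42.0, DESeq2 size factors, total counts, no filter, a single fit, a replicate block and leaving out each library; limma 3.58.1 on log2(TPM + 0.5) was added after seeing the data. Counting intervals of summed counts and the floor of 3 counts cover counting error alone, at the 95% level. The 95% intervals of log2 changes come from the edgeR fit and include its estimate of the spread between libraries. The edgeR test gives no standard error. Each SE was computed as the size of the log2 change divided by the square root of the F statistic.

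The 9 mRNAs and the lists of pathways and cell markers were chosen with earlier results of these data known; 1 pathway list and 1 gene that the naming rule picked are not reported here. Named genes are the 9 mRNAs, Pum2, the markers, for each list up to 3 genes per direction with the largest change among those that passed, or up to 2 with the smallest p, and for each mRNA the gene most alike by Pearson's r of log2(CPM + 0.5). Of the list genes, Ipo5, Ranbp3, Lbr, Sun2 and Pou4f1 were not analysed here.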

Additional observations from a re-analysis of the deposited data

How the results depend on the processing

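Between the hairpins 0 of the mRNAs were called under every alternative run, namely DESeq2, DESeq2 size factors, total counts, no filter, a single fit, the replicate block and each library left out. Counts of all genes moved more. In somatic RNA, DESeq2 called 2 genes and a single fit of 8 libraries 0 (8 at an unadjusted p below 0.05), and leaving out a library gave 0 to 1. In axonal RNA, DESeq2 called 348, no filter 6, and leaving out a library 0 to 31. For the interaction, DESeq2 called 631 and leaving out a library gave 0 to 712. For axonal against somatic RNA, leaving out a library gave 0 to 4862 genes and 0 to 5 of the mRNAs with shPum2, and 0 to 5540 genes and 0 to 4 of the mRNAs with shControl. The 0 genes came with either somatic library of that hairpin left out, when edgeR still had 3171 or 3344 genes at an unadjusted p below 0.05 with shPum2 and 3437 or 3505 with shControl; the lone library is then assumed to vary like the other groups. In TPM, limma called 7887 genes and 7 of the mRNAs with shPum2, and 8048 genes and 7 of the mRNAs with shControl. It turned Hmgb1 to -0.89 and -0.81 and Ranbp1 to -0.67 and -0.56. Without the filter Ranbp1 lost its call (edgeR adjusted p = 0.0535 with shPum2 and 0.0502 with shControl).

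Uncalled values changed sign, those near 0 under other scales and tools, and large ones too with 1 library left out, such as axonal Pard3 (2.03) and the interactions of Lmnb2 (3.12) and Creb1 (-4.47). In somatic RNA, Impa1 was 0.0018 under DESeq2 size factors, 0.00085 under DESeq2 and 0.01 under total counts, and Rhoa was -0.01 in the single fit. In axonal RNA, Hmgb1 was 0.05 under total counts, and Ranbp1 was 0.02 under DESeq2 size factors and 0.05 under both DESeq2 and the single fit. The interaction of Ranbp1 was -0.08 under total counts and -0.12 in TPM. With single libraries left out, somatic hairpin differences ran from -0.06 to 0.05 for Impa1, -0.11 to 0.14 for Lmnb2, -0.21 to 0.32 for Creb1, -0.01 to 0.03 for Rhoa, -0.07 to 0.04 for Stat3 and -0.01 to 0.10 for Ranbp1. Axonal ones ran from -0.05 to 5.69 for Impa1, -1.26 to 2.02 for Kpnb1, -2.99 to 3.80 for Pard3, -2.41 to 2.49 for Stat3 and -1.02 to 0.56 for Ranbp1. Axonal against somatic values ran from -1.39 to 0.04 for Impa1 and -5.43 to 0.27 for Pard3 with shPum2, and from -9.49 to 0.53 for Creb1 with shControl. Interactions ran from -0.01 to 5.77 for Impa1, -1.09 to 2.01 for Kpnb1, -3.90 to 6.94 for Lmnb2, -5.49 to 4.62 for Creb1, -2.85 to 3.64 for Pard3, -2.15 to 2.42 for Stat3 and -1.16 to 0.74 for Ranbp1. The cause of these shifts was not tested.

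Replicate numbers are shared by the groups, but the labels do not say that they pair samples. Deviations of same-numbered libraries from their group means correlated at 0.733 between the somatic groups, 0.0847 between the axonal groups and at most 0.0812 across compartments. With the replicate number as a block, 3 of the mRNAs were called axonal against somatic in each comparison (2190 genes with shPum2, 2369 with shControl), Lmnb2 losing its shControl call (edgeR adjusted p = 0.0648), the interaction of Ranbp1 was -0.08, and 0 were called between the hairpins (0 genes in axonal RNA and 1 in somatic RNA). With 2 libraries a group, levels at or under the 3 counts that a count of 0 allows cannot be told from 0.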

Other observations

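For each of the 9 mRNAs the gene with the most similar pattern was sought among 11621 genes, by Pearson's r of log2(CPM + 0.5) over the 8 libraries. For 7 of them every axonal value lay below every somatic one, so the coefficient largely reads the split between compartments. Hmgb1 and Ranbp1 overlapped between compartments, and for them it also reads the variation among axonal libraries. The coefficient carries no test. For Stat3 it was Cyfip2 (r = 0.9994), with 60.6 and 2.79 CPM in axonal shPum2 and 29.3 and 3.25 CPM in axonal shControl libraries, against 479 and 536 CPM in somatic shPum2 and 484 and 537 CPM in somatic shControl libraries. For Impa1 it was Dnajc7 (r = 0.9993), low in the same library as Impa1, axonal shControl replicate 2, at 5.03 CPM against 50.1 to 58.0 CPM in the other 3 axonal libraries. For Pard3 it was Anapc7 (r = 0.9988), with 26.2 and 0.0620 CPM in axonal shPum2 and 4.54 and 0.443 CPM in axonal shControl libraries. For Ranbp1 it was Prxl2b (r = 0.9929), which like Ranbp1 was highest in replicate 2 of both axonal groups, at 119 CPM with shPum2 and 107 CPM with shControl. For Hmgb1 it was Fcgr1a (r = 0.9807), a receptor of macrophages, at 62.5 and 0.186 CPM in axonal shPum2 and 6.08 and 24.2 CPM in axonal shControl libraries, against 1.65 and 0.542 CPM in somatic shPum2 and 0.957 and 0.216 CPM in somatic shControl libraries. Its lowest value of all 8 was in axonal shPum2 replicate 2, where Hmgb1, at 225 CPM, was within its somatic range of 206 to 246 CPM. Kpnb1 was most like Cep295 (0.9992), Lmnb2 like Nol10 (0.9996), Creb1 like Bcl6 (0.9982) and Rhoa like Sipa1l1 (0.9982).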
